A study of Drosophila melanogaster with 6 samples.

Results

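The vacuolar ATPase (V-ATPase) subunits of Drosophila S2 cells were examined here, as all array probe sets that the platform annotation pairs with 1 gene whose symbol begins with Vha. A probe set is a group of short probes that together read 1 transcript or a group of related transcripts. The rule found 32 probe sets for 31 genes, of 18769 probe sets for fly transcripts and 13647 paired with 1 gene. Vha16-1 had 2 probe sets and every other gene had 1. S2 cells are an embryonic fly line with hemocyte-like (blood cell) features. In the control group, 3 samples had received double-stranded RNA (dsRNA) against GFP, a jellyfish protein that flies lack. In the other group, 3 samples had received dsRNA against spotted-dick, the gene now named pita, a DNA-binding protein gene of the zinc-finger class. Cells of both groups were kept for 5 days before total RNA was taken, and each sample was read on 1 Affymetrix Drosophila_2 array. Whether replicates were separate cultures is not stated in the labels, and p-values measure the spread between these samples, which may be technical. No rescue is named in the labels, and loss of spotted-dick and other effects of its dsRNA cannot be told apart. The comparison asks whether transcripts of the proton pump change when spotted-dick is depleted.

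The V-ATPase is a rotary pump in the membranes of lysosomes, endosomes, Golgi and some plasma membranes. Its cytosolic V1 sector splits ATP and turns a central stalk, and its membrane-bound V0 sector carries protons through as the stalk turns. The pump acidifies lysosomes, and it serves protein breakdown, receptor recycling and the sensing of amino acids at the lysosome. In flies many subunits are encoded by several genes. One paralogue of a subunit is commonly used throughout the body while others are used in single tissues such as the testis.

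Values are deposited array signals on a linear scale. A signal was called above background where it exceeded the 95th percentile of 101 control probe sets for foreign sequences on the same array, which lay between 12.7 and 18.4. Signals of different probe sets depend on their probes, so no gene's level is set against another's. The arrays differed in brightness: the trimmed mean signal was 125.8 to 189.6 in the GFP arrays and 125.4 to 138.8 in the spotted-dick arrays. Changes are therefore given after quantile normalization, which gives all arrays the same distribution of signals, as differences of log2(signal + 16), spotted-dick RNAi minus GFP RNAi. The targeted pita transcript was lower in all 3 spotted-dick arrays, at 25.9 to 46.6 against 269.7 to 335.9 in the GFP arrays (change -2.54 ± 0.16, SE, n = 3 and 3, limma adjusted p = 7.56e-08). Orc4, an origin recognition gene, fell by 2.54 (limma adjusted p = 1.57e-06). Its spotted-dick signals were 2.7, 14.2 and 4.0, above background on 1 array, against 100.9 to 146.0 in the GFP arrays. The sizes of both falls depend on the 16 added. With 1 added in its place the changes were -2.98 for pita and -4.13 for Orc4, and with 64 added -1.81 and -1.35. Of 10 hemocyte markers 7 were above background in every GFP array, among them srp, Hml, vkg and Col4a1, while NimC1 and Sr-CI were above it in none. As deposited the summed signal of the 10 was 11844 to 15752 in the GFP arrays and 11253 to 12021 in the spotted-dick arrays. Most of this sum came from vkg and Col4a1, whose changes after quantile normalization were -0.05 and 0.01. Pxn, an extracellular matrix peroxidase gene of hemocytes, rose by 1.40 (limma adjusted p = 0.000414). It was the 1 of 9 tested hemocyte markers that passed, beside 2.04% of all tested probe sets. The probe set read here, 1 of 2 for this gene, had GFP signals of 30.2, 11.5 and 16.8, above background on 2 arrays. The spotted-dick arrays had 73.0, 56.9 and 62.1, and the size of the change depends on the 16 added. The median change of the 9 was 0.01, and crq, a scavenger receptor gene, had a change of -0.31 (adjusted p = 0.0552). The part of these markers in V-ATPase values was not tested. Of 8 markers of the male germ line, none was above background in all 3 GFP arrays. In bulk RNA, fewer cells of a type and less RNA per cell cannot be told apart.

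The array found 1 clearly detected gene for most V-ATPase subunits and 2 for subunits a and e. In the GFP arrays 15 of 31 genes, read by 16 of 32 probe sets, were above background on all 3 arrays, and the same 15 genes were so on all 3 spotted-dick arrays. Of the other 16 probe sets, 8 were above background on no GFP array and 8 on 1 or 2 of them. The 16 detected probe sets had signals of 278.6 to 5794 on any array and the other 16 of 0.8 to 28.2, with nothing in between. Over all fly probe sets, 41.3% were above background on all 3 GFP arrays. The plot of signals by gene shows this gap.

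**Figure D1:**
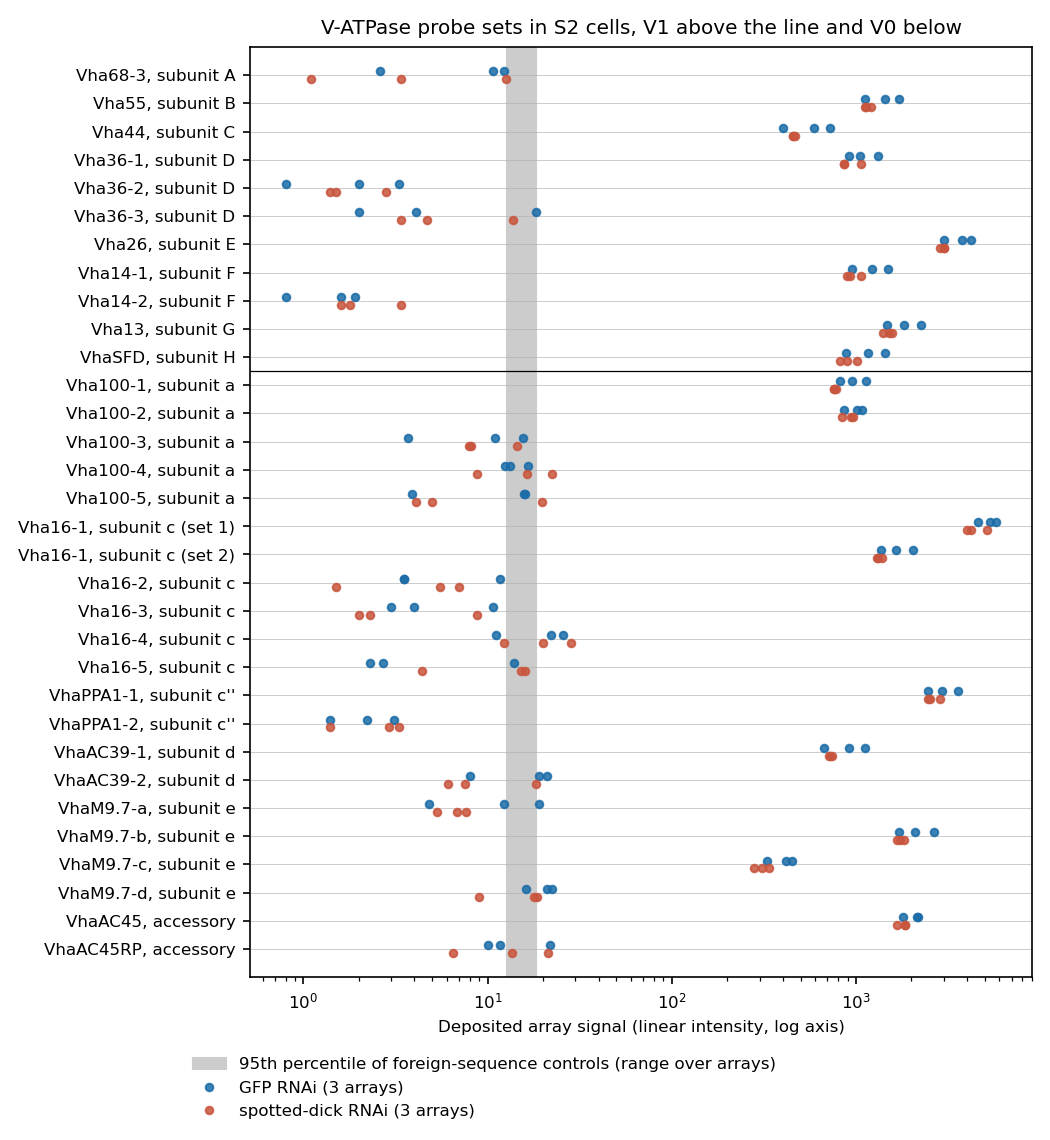
Deposited signal (log axis) of the 32 V-ATPase probe sets on the 3 GFP RNAi arrays (blue) and the 3 spotted-dick RNAi arrays (red), with subunits of V1 above the line and of V0 below; each point is 1 array, and the grey band is the range of the background threshold over arrays, 12.7 to 18.4. The 16 detected probe sets lie between 278.6 and 5794 and the other 16 at or below 28.2.

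In the V1 sector, 7 subunits had 1 detected gene each. These were Vha55 (CG17369) for subunit B, the nucleotide-binding partner of the catalytic subunit, and Vha44 (CG8048) for subunit C, which links V1 to V0. Vha36-1 (CG8186) and Vha14-1 (CG8210) were the detected genes of subunits D and F, which form the turning stalk. Vha26 (CG1088) and Vha13 (CG6213) encode subunits E and G of the outer stalks, and VhaSFD (CG17332) subunit H, which holds a detached V1 inactive. The other genes of subunit D were not detected in full: Vha36-2 measured 0.8, 2.0 and 3.3 under GFP RNAi, all under background, and Vha36-3 of 4.1, 18.3 and 2.0, above it on 1 array. For subunit F, Vha14-2 lay at 0.8, 1.9 and 1.6. For the catalytic subunit A, the probe set of Vha68-3 was above background on no array (10.7, 12.3 and 2.6 in the GFP arrays). Vha68-1 and Vha68-2, the other genes of subunit A in the RefSeq gene table, had no probe set under this rule and were not analysed here. Which gene of subunit A these cells use was therefore not measured.

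In the V0 sector, subunits c, c'' and d each had 1 detected gene and subunits a and e had 2. Vha16-1 (CG3161) was the detected gene of the proteolipid c, whose copies form most of the turning ring. Both of its probe sets were detected. The other c genes were at or near background: in the GFP arrays Vha16-2 had signals of 3.5 to 11.6, Vha16-3 of 3.0 to 10.7, Vha16-5 of 2.3 to 13.9 and Vha16-4 of 11.1 to 25.6, above background on 2 arrays. VhaPPA1-1 (CG7007), the related ring proteolipid c'', was detected, while VhaPPA1-2 lay at 1.4 to 3.1. VhaAC39-1 (CG2934), subunit d, which joins the stalk to the ring, was detected, and VhaAC39-2 was above background on 2 GFP arrays (21.1, 8.0 and 18.9).

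Subunit a holds the path by which protons enter and leave the ring. Vha100-1 (CG1709), known in flies for its part at synapses, and Vha100-2 (CG18617) were both detected. Vha100-3 had signals of 3.7 to 15.5 in the GFP arrays, Vha100-4 of 12.4 to 16.6 and Vha100-5 of 3.9 to 15.9, each on at most 1 GFP array above background. Of the genes of the small membrane subunit e, VhaM9.7-b (CG7625) and VhaM9.7-c (CG11589) were detected. VhaM9.7-a lay at 4.8 to 18.9 and VhaM9.7-d at 16.1 to 22.3, above background on 1 and 2 GFP arrays. The accessory subunit gene VhaAC45 (CG8029) was detected, and its relative VhaAC45RP, at 10 to 21.7, was above background on 1 GFP array. ATP6AP2, a further accessory gene whose synonyms include VhaPRR but whose symbol keeps it out of the rule, had signals of 1962 to 2833 under GFP RNAi and 1717 to 2177 under spotted-dick RNAi (change -0.05 ± 0.05, SE, limma adjusted p = 0.783). CG5421, with the synonym VhaAC45-2, was above background on none of the 6 arrays.

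Some detected and undetected paralogues are close neighbours. Vha100-4 and Vha100-2 follow each other in the RefSeq Release 6 gene order with 0 genes between them, and VhaPPA1-2 and VhaPPA1-1 with 1 gene between them. In both pairs the second gene was detected on every array and the first was not detected in full on the GFP arrays. Vha16-3 and Vha16-2, with 1 gene between them, were both under background on every array. Of the 16 detected probe sets, 7 have the suffix _s_at and 1, that of VhaSFD, the suffix _a_at, both of which mark probes common to several transcripts. None of the other 16 has either suffix.

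On quantile normalized values the detected V-ATPase transcripts differed little between the groups, while those near background were measured too imprecisely to say. After quantile normalization 0 of 25 tested V-ATPase probe sets passed limma at an adjusted p under 0.05, in either direction, where 230 of all 11261 tested probe sets passed (2.04%). None had an unadjusted p under 0.05, where 1382 of all tested probe sets did (12.3%). The smallest adjusted p was 0.492. Among the 16 detected probe sets the median change was -0.04, with a range from -0.09 for VhaM9.7-c to 0.16 for Vha100-2. The median over all tested probe sets was 0.01. All 16 limma 95% intervals lay inside a 1.5-fold change in either direction, and their outermost bounds were -0.28 and 0.34. Of all 7753 tested probe sets above background on every GFP array, 87.7% had an interval inside the same limits. The pooled within-group standard deviation of the 16 ranged from 0.018 to 0.149 with a median of 0.073, against a median of 0.118 for those 7753. The 7753 include probe sets just above background, where spread was larger. Among V-ATPase probe sets the standard errors of the change were 0.04 to 0.09 for the detected and 0.23 to 0.30 for the others tested. No set of like brightness was compared, so these values do not show that V-ATPase probe sets were steadier than others.

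**Figure D2:**
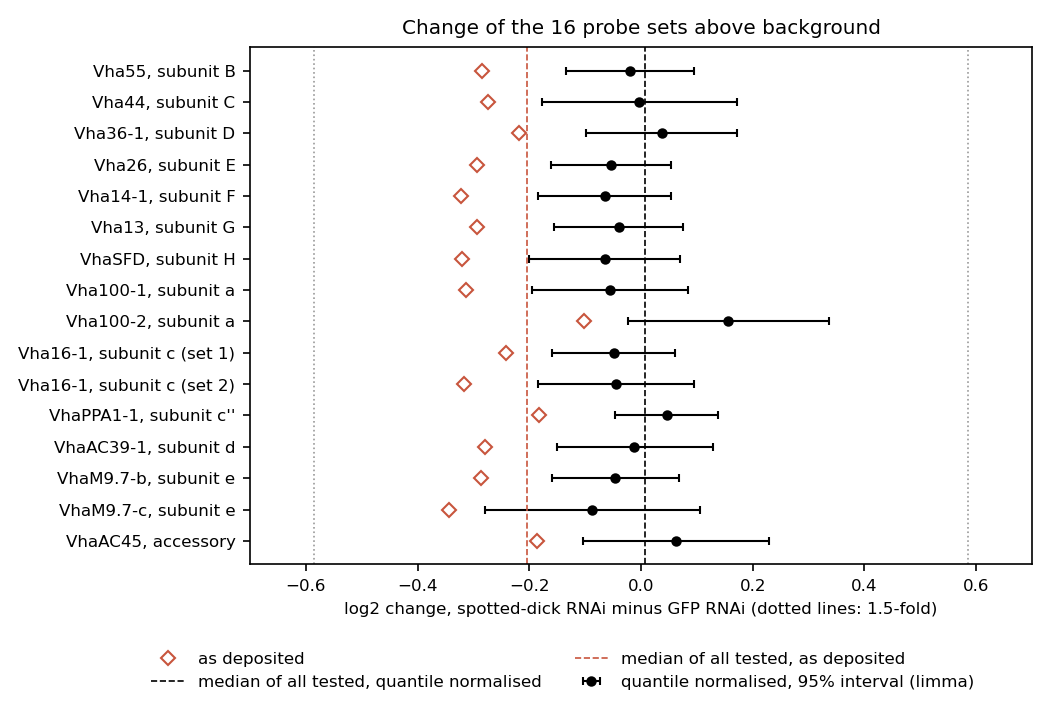
Change of the 16 detected V-ATPase probe sets, spotted-dick RNAi minus GFP RNAi on the log2(signal + 16) scale; black points with bars are quantile normalised values with limma 95% intervals, open red diamonds the changes as deposited, dashed lines the medians of all tested probe sets and dotted lines a 1.5-fold change. The intervals span at most -0.28 to 0.34, and the deposited changes lie between -0.34 and -0.10 around a median of -0.20 for all tested probe sets.

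None of the V1 genes passed the test. Vha55 (subunit B) measured 1722, 1439 and 1115 under GFP RNAi against 1132, 1203 and 1116 under spotted-dick RNAi. Its groups overlapped, and after quantile normalization its change was -0.02 ± 0.05 (SE, 95% interval -0.14 to 0.09, limma adjusted p = 0.919). Vha44 (subunit C) had signals of 725.6, 592.0 and 403.4 against 468.1, 454.4 and 453.4, so the spotted-dick arrays lay inside the range of the GFP arrays. Its change was -0.003 ± 0.08 (95% interval -0.18 to 0.17). Among the stalk genes, Vha36-1 (subunit D) had signals of 1312, 1047 and 915.0 against 864.8, 1063 and 861.6. Its change was 0.04 ± 0.06 (95% interval -0.10 to 0.17). Vha14-1 (subunit F), which turns in the same stalk, had 1502, 1224 and 954.7 against 895.8, 1072 and 925.4. Its change was -0.07 ± 0.06 (95% interval -0.19 to 0.05, limma adjusted p = 0.709), and the groups overlapped.

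The genes of the outer stalks and of subunit H did not pass either. Vha26 (subunit E) measured 4220, 3759.8 and 2993 under GFP RNAi against 2854, 2998 and 2999.5 under spotted-dick RNAi, with a change of -0.05 ± 0.05 (limma adjusted p = 0.733). Vha13 (subunit G) had 2269, 1829 and 1474 against 1511, 1561 and 1399.9, with a change of -0.04 ± 0.05 (adjusted p = 0.824). VhaSFD (subunit H) had 1438, 1159 and 879.6 against 893.9, 1016 and 822.4, with a change of -0.07 ± 0.06 (adjusted p = 0.742). For all 3 genes the highest signal was that of GFP replicate 1, the brightest array, and the groups overlapped after normalization.

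In the V0 sector the 2 detected subunit a genes lay on either side of 0. Vha100-1 measured 1131, 953.4 and 820.4 under GFP RNAi against 762.0, 783.0 and 762.2 under spotted-dick RNAi. As deposited it was the only 1 of the 16 detected probe sets with all spotted-dick arrays below all GFP arrays, as were 12.6% of all tested probe sets, and after quantile normalization its groups overlapped (change -0.06 ± 0.07, SE, limma adjusted p = 0.793). Vha100-2 had signals of 1018, 1076 and 862.4 against 844.9, 958.9 and 939.2. Its change of 0.16 ± 0.08 (95% interval -0.02 to 0.34, adjusted p = 0.492) had the smallest p of all tested V-ATPase probe sets. After quantile normalization its level was 9.63 in GFP replicate 1 and 9.95 to 10.1 on the other arrays. Without GFP replicate 1 the change was 0.05. The difference between the changes of the 2 genes was not tested.

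No gene of the ring or of its coupling subunit passed. The first probe set of Vha16-1 had signals of 5794, 5365 and 4625 against 4023, 5119 and 4219, and the second had 2034, 1655 and 1370.4 against 1380.4, 1297 and 1324. Both gave nearly the same change, -0.05 ± 0.05 and -0.04 ± 0.07 (SE, limma adjusted p = 0.765 and 0.842). VhaPPA1-1 (subunit c'') had signals of 3568, 2948 and 2465 against 2467, 2843 and 2527. After quantile normalization it was the 1 detected V-ATPase probe set whose groups did not overlap. All 3 of its spotted-dick arrays were higher, as was so for 1071 of all 11261 tested probe sets. In either direction groups did not overlap for 17.8% of all tested probe sets. The change of VhaPPA1-1 was 0.05 ± 0.04 (95% interval -0.05 to 0.14, adjusted p = 0.736). VhaAC39-1 (subunit d) had 1115, 914.4 and 672.6 against 710.2, 740.6 and 721.1, with a change of -0.01 ± 0.07 (adjusted p = 0.962).

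Of the subunit e genes, VhaM9.7-b had signals of 2654.5, 2102 and 1712 against 1740, 1814.5 and 1663, and a change of -0.05 ± 0.05 (SE, limma adjusted p = 0.790). VhaM9.7-c had 447.5, 417.9 and 328.1 against 278.6, 310.2 and 336.8, and the widest interval of the 16 detected probe sets (change -0.09 ± 0.09, 95% interval -0.28 to 0.10). The groups of both overlapped. VhaAC45 had signals of 2134, 2177 and 1809.9 against 1676, 1837 and 1846 and a change of 0.06 ± 0.08 (adjusted p = 0.805). Like Vha100-2 it was lowest in GFP replicate 1 after normalization, at 10.67 against 10.87 to 11.04 on the other arrays, and without that array its change was -0.04.

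The probe sets near background gave wide intervals, with outermost bounds of -0.77 and 1.01 and 0 of 9 inside a 1.5-fold change. Of the 16, 9 passed the filter on dim signals and were tested, with changes from -0.22 for VhaM9.7-a to 0.39 for Vha16-5, and 7 were not tested. Vha16-5 measured 2.3, 13.9 and 2.7 under GFP RNAi against 4.4, 15.9 and 15.1 under spotted-dick RNAi, with a 95% interval of -0.24 to 1.01 (limma adjusted p = 0.655). It exceeded background on 0 GFP arrays and 1 spotted-dick array. Vha36-2, Vha14-2, Vha16-2, Vha16-3, VhaPPA1-2 and Vha68-3 were above background on none of the 6 arrays. None of the 16 dim probe sets was above background on all 3 spotted-dick arrays.

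As deposited, the detected V-ATPase probe sets moved with the brightness of the arrays. All 16 had a lower mean in the spotted-dick arrays, with changes from -0.34 to -0.10 and a median of -0.28, where all tested probe sets had a median of -0.20. On that scale also 0 of 25 tested V-ATPase probe sets passed, where 140 of 11261 did (1.24%). The standard errors of the 16 deposited changes had a median of 0.20, against at most 0.09 after quantile normalization. The deposited changes were therefore measured less precisely. The highest signal was that of GFP replicate 1 for 14 of the 16 and of GFP replicate 2 for the other 2. The file headers name 2 fluidics stations, on which arrays are washed and stained. GFP replicates 1 and 2 shared station 1 with spotted-dick replicate 1, and the others shared station 2. As deposited, the median change of the 16 was -0.45 within station 1 and 0.04 within station 2, beside -0.37 and 0.05 for all tested probe sets. After quantile normalization these medians were 0.02 and -0.05 for the 16 and 0.01 in both stations for all tested probe sets. The 16 single changes ranged from -0.14 to 0.17 within station 1 and from -0.16 to 0.09 within station 2. The plot of deviations by array shows both scales. All GFP arrays had been scanned first, which means that group and order of scanning cannot be told apart.

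**Figure D3:**
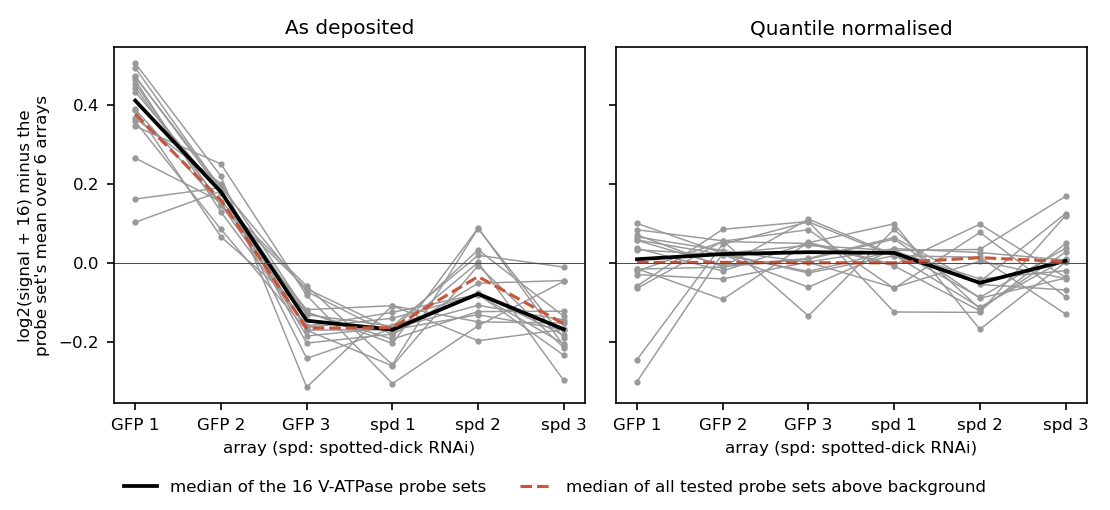
Deviation of each of the 16 detected V-ATPase probe sets from its own mean over 6 arrays, in log2(signal + 16) units, as deposited (left) and after quantile normalization (right); grey lines link the values of 1 probe set, the black line is the median of the 16 and the red dashed line the median of all 7753 tested probe sets above background. As deposited both medians are highest in GFP replicate 1 (0.41 and 0.38), and after normalization the median of the 16 stays between -0.05 and 0.03.

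Genes that work with the pump were examined as 5 lists. Of 17 tested genes of V-ATPase assembly and lysosomal nutrient sensing none passed, and 3 had an unadjusted p under 0.05, beside 12.3% of all tested probe sets. They had a median change of -0.04 and included Mitf, a factor known to activate V-ATPase genes in flies (-0.02 ± 0.22, SE, limma adjusted p = 0.984, above background on 3 GFP and 2 spotted-dick arrays), Rbcn-3B of the V-ATPase assembly complex (-0.08 ± 0.11, adjusted p = 0.833) and CG5969 (-0.01). The smallest p-values were those of REPTOR-BP (-0.32, adjusted p = 0.238), Lamtor5 (-0.16, adjusted p = 0.309) and REPTOR (-0.26, adjusted p = 0.349).

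Of 16 tested lysosome genes 2 fell and none rose at an adjusted p under 0.05, where 2.04% of all tested probe sets passed. The median change of the 16 was -0.08. At an unadjusted p under 0.05, 7 of the 16 were counted (Lip4, Npc2b, LManII, Cp1, spin, CtsF and Sap-r), where the share over all tested probe sets was 12.3%. The count holds both directions: LManII and spin (0.19) had positive changes and the others negative ones. Lip4, a gene of the lipase family, measured 384.1, 298.8 and 263.9 under GFP RNAi against 153.7, 202.7 and 164.5 under spotted-dick RNAi. As deposited its spotted-dick arrays all lay below its GFP arrays, as was so for 12.6% of all tested probe sets. After quantile normalization Lip4 fell by 0.55 (SE 0.10, limma adjusted p = 0.00576). Npc2b, of the family of cholesterol-binding proteins, had 894.5, 741.5 and 506.9 against 392.0, 516.7 and 388.6 and fell by 0.42 (SE 0.09, adjusted p = 0.0169). LManII, a lysosomal mannosidase gene, had a change of 0.37 (adjusted p = 0.0774). As deposited Lip4 passed and Npc2b did not (adjusted p = 0.0367 and 0.113). Neither passed without the intensity trend in limma (adjusted p = 0.123 and 0.265). The call of Npc2b also ended without GFP replicate 1 (limma adjusted p = 0.0991), GFP replicate 2 (0.112), spotted-dick replicate 1 (0.0717) or spotted-dick replicate 3 (0.113).

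None of 15 endosomal and vacuolar sorting genes passed (median 0.04, smallest p for Vps39, 0.27, limma adjusted p = 0.261), nor did any of 21 autophagy genes (median -0.04, smallest p for Atg5, -0.31, adjusted p = 0.312). At an unadjusted p under 0.05, 1 of the 15 and 3 of the 21 were counted, beside the same 12.3%. Of 11 tested ion transport genes 1 fell: nrv1, a sodium pump beta subunit, had signals of 2524, 2087 and 1587 against 1391, 1526 and 1360.4 and fell by 0.26 (SE 0.05, limma adjusted p = 0.0112). As deposited nrv1 did not pass (adjusted p = 0.252), nor did it without the intensity trend (0.288), without GFP replicate 1 (0.0522), GFP replicate 2 (0.0729) or spotted-dick replicate 3 (0.0735). Over all tested probe sets 2.04% passed.

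**Figure D4:**
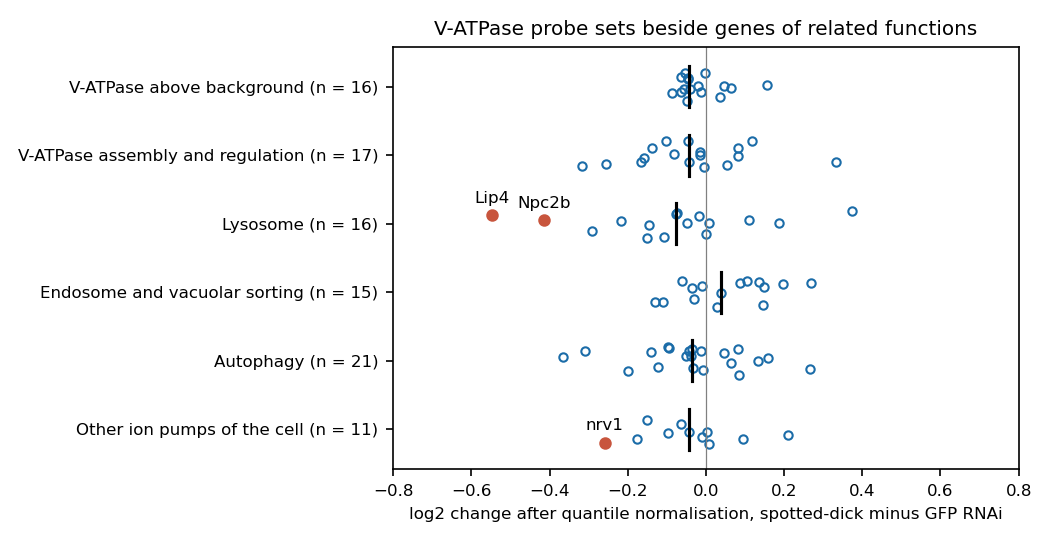
Changes after quantile normalization of the 16 detected V-ATPase probe sets and of the tested genes of 5 lists, on the log2(signal + 16) scale; each point is 1 probe set, filled red points passed limma at an adjusted p under 0.05, and black bars are medians. Lip4, Npc2b and nrv1 are the 3 genes that passed, all lower, and the V-ATPase probe sets lie between -0.09 and 0.16.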

How the data were processed

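The 6 samples were read on 6 Affymetrix Drosophila_2 arrays. The authors deposited 1 linear intensity per probe set and array. How probes were summarised, corrected for background and scaled was not found in the headers or labels. Depth is set by the number of arrays. The members and lists were chosen with earlier results of these data known.

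Of 125 control probe sets, 101 for foreign sequences set the background. Intensities of the 18769 fly probe sets were quantile normalized, 16 was added and log2 taken. Probe sets under the 40th percentile of the mean were left out, which kept 11261. Groups were compared with limma 3.58.1 (R 4.3.3) with an intensity trend, two-sided, with Benjamini-Hochberg adjustment over all tested probe sets, called at 0.05. The fit was also run on simulated data with the same spread for every probe set. Such data cannot show how it handles a spread that varies with signal. An earlier processing left the arrays unnormalized. That is an alternative here because brightness differed. Others were median centring, scaling to 9 hybridisation controls, pseudocounts of 1 and 64, no filter or one at the 60th percentile, other limma settings, blocks for replicate number and station, and leaving out each array.

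All V-ATPase probe sets are named. Given in full are the 6 with the smallest p and the brightest probe set of each subunit, and of each list up to 3 genes with the smallest p. A list gene with several probe sets was read by the brightest. Mitf, Rbcn-3B, CG5969, ATP6AP2, CG5421, Pxn, crq, Cp1, spin, CtsF and Sap-r are outside this rule and were named after their values were seen. RefSeq Release 6 (matched for all 31 genes) gave names and gene order only. Of cell type markers with a probe set, other than those of hemocytes, 2 of 4 neuron (elav and brp), 1 of 6 gut and tubule (Irk2), and none of 8 male germ line, 1 muscle or 3 fat body genes were above background on all 3 GFP arrays. Promoter words were not counted, since no promoter sequences were used here. Plots were made in Python 3.11.15 (matplotlib 3.10.9).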

Additional observations from a re-analysis of the deposited data

How the results depend on the processing

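No V-ATPase probe set passed in any of 17 alternatives. The smallest adjusted p of a detected one over all settings was 0.389, and under quantile normalization the changes of the 16 stayed between -0.17 and 0.22. At an unadjusted p under 0.05 the count of V-ATPase probe sets was 1 with scaling to the hybridisation controls, without GFP replicate 2 and without GFP replicate 3, and 0 in the other settings. The median change of the tested V-ATPase probe sets was -0.04, and -0.269 as deposited and -0.205 with median centring, where the medians of all tested probe sets were -0.204 and -0.140. It was 0.003 with scaling to the hybridisation controls (all: 0.035) and ranged from -0.04 to -0.012 with 1 array left out. The number of detected V-ATPase genes was 15, 15 with the highest foreign-sequence control as background, 18 with 2 of 3 arrays and 19 with the 75th percentile, which added Vha100-4, Vha16-4, VhaM9.7-d and VhaAC45RP.

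Over all tested probe sets 230 passed, 69 higher and 161 lower. The count was 140 as deposited (11 higher, 129 lower), 126 with no filter and 53 without the intensity trend. It ranged from 116 to 247 with 1 array left out, with 116, 144 and 140 without GFP replicate 2, GFP replicate 3 and spotted-dick replicate 3. With median centring 16 were higher and 151 lower. With hybridisation control scaling 69 were higher and 132 lower. With the replicate block it was 198, no V-ATPase probe set passed and all 3 called list genes still did. The deviations of same-numbered samples had correlations of -0.06, -0.03 and 0.05, and those of differently numbered samples of -0.06 to 0.10. These values cannot show whether same-numbered samples were handled together, which the labels do not state.

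Of the 3 list genes called, 1 was called as deposited, 1 with median centring, 0 without the trend, and 1 to 3 with 1 array left out, 1 without GFP replicate 1, GFP replicate 2 or spotted-dick replicate 3. Lip4 was the 1 called in each, except without the trend (adjusted p = 0.123). The calls of Npc2b and nrv1 also ended with other settings, Npc2b with a station block (0.0517), with no filter (0.0758) and without spotted-dick replicate 1 (0.0717), and nrv1 with scaling to the hybridisation controls (0.125), each value an adjusted p. The causes were not tested. Of 16 V-ATPase probe sets near background, 7 have no tested change and 9 have intervals that reach from -0.77 to 1.01 in all.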
